A study of Nothobranchius furzeri with 30 samples.

Results

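The retinas of 10 old turquoise killifish (18 weeks) were compared with those of 10 young ones (6 weeks), 20 of the 30 fish sequenced in the series. The killifish is a vertebrate whose natural life lasts only months. The groups were taken from the age given for each sample, and every fish of both ages entered the comparison. All fish were untreated, wildtype females of the inbred GRZ-AD strain, and the remaining 10 fish, aged 12 weeks, are given below only beside results they touch. Each sample held both retinas of 1 fish, dissected free of lens, dermal and scleral cornea and rinsed to remove the retinal pigmented epithelium (RPE), the pigmented sheet that supports the photoreceptors. Polyadenylated RNA was read from the 3′ ends of transcripts, and read counts were obtained for 24989 loci, of which 13975 had enough counts to be tested. A 3′ count does not grow with transcript length, so that levels are given as CPM, a locus's counts relative to the library total, after scaling with the trimmed mean of M-values (TMM), and loci are compared between ages and not with one another. Log2FC is the fitted difference on the log2 scale, old minus young, and the false discovery rate (FDR) is the Benjamini-Hochberg adjusted p of edgeR's quasi-likelihood test over all tested loci. A gene is said to have risen or fallen where its FDR was below 0.05. Where several loci share a name, the one with the largest change is given with its locus identifier or as 1 of several.

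The vertebrate retina holds rods and cones, which turn light into a graded electrical signal, bipolar, horizontal and amacrine cells, which relay and shape it, and ganglion cells, whose axons form the optic nerve. Müller glia span its whole depth, recycle transmitters and store glycogen, and microglia are its resident phagocytes. In fish the retina keeps growing from a margin of dividing progenitors throughout life, and rods are added from Müller glia. Ageing of the nervous system is commonly described by the activation of microglia and glia, low-grade inflammation and loss of synapses. Because whole retinas were used, a lower level can come from fewer cells of a type or from less RNA per cell, and these cannot be told apart.

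The 20 libraries of both ages held between 3626678 and 5840792 counts on loci. The cell type lists fitted the tissue, with rod, cone, bipolar and Müller glia markers present in every library and only 2 lens markers above the filter, at a summed 1.63 to 5.44 CPM. RPE markers were present in every fish, and their mean level over 12 loci was 5.57 to 6.18 log2 CPM at 6 weeks and 4.44 to 5.59 at 18 weeks. Fish 1 of the 18-week group stood apart on the first principal component (a score of 101, other fish -23.1 to 27.7). Fish 6 of the 6-week group carried high levels of collagen I and keratin 5. Fish 8 of the 6-week group had the highest microglial level of its age. The main results that rest on any of these fish are given with and without it. Lists with 0 to 3 members changed in a direction could gain or lose members when a single fish was left out. The largest such move was from 2 to 12 fallen cytosolic ribosomal genes without fish 1 of the 18-week group.

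Of all tested loci, 14.0% rose and 15.2% fell with age, and the shares in each functional list are read against these. All old fish lay above all young fish at 1.01% of tested loci and below them at 1.33%. A log2FC of at least 1 in size and an FDR below 0.05 were met by 183 loci that rose (1.31%) and 284 that fell (2.03%). Together, 2 loci held a median of 42.7% of the counts on loci at 6 weeks and 31.3% at 18 weeks. The part of this difference in the scaling was not tested. The median log2FC over all loci was 0.02, or 0.32 when libraries were scaled by their totals, and list medians relative to that of all loci moved by at most 0.0259. Changes are therefore given relative to the bulk of the retinal transcriptome. Counts of rising and falling members under library size alone are given for many of the lists. Under that scaling 6441 of the 13975 loci rose and 637 fell, and counts of members under it are read against these. With it, 15 of 19 interferon response genes, 14 of 17 microglial markers and 11 of 14 Müller glia markers rose. So did 40 of 56 lysosomal, 31 of 40 autophagy, 14 of 22 cytokine and NF-kB and 11 of 20 glycogen genes. Of these lists, Müller glia and autophagy had 1 fallen member each and the others 0. Because RPE markers were lower in old fish, the main falling groups are also given in a fit with the RPE and melanin marker score as a covariate. In that fit 712 of the 13975 loci rose and 904 fell, and counts of members in it are read against these. The score fell with age, so this fit can also take up part of the age difference itself, and its effect on the RPE and melanin genes, from which the score was built, follows from its construction.

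**Figure D1:**
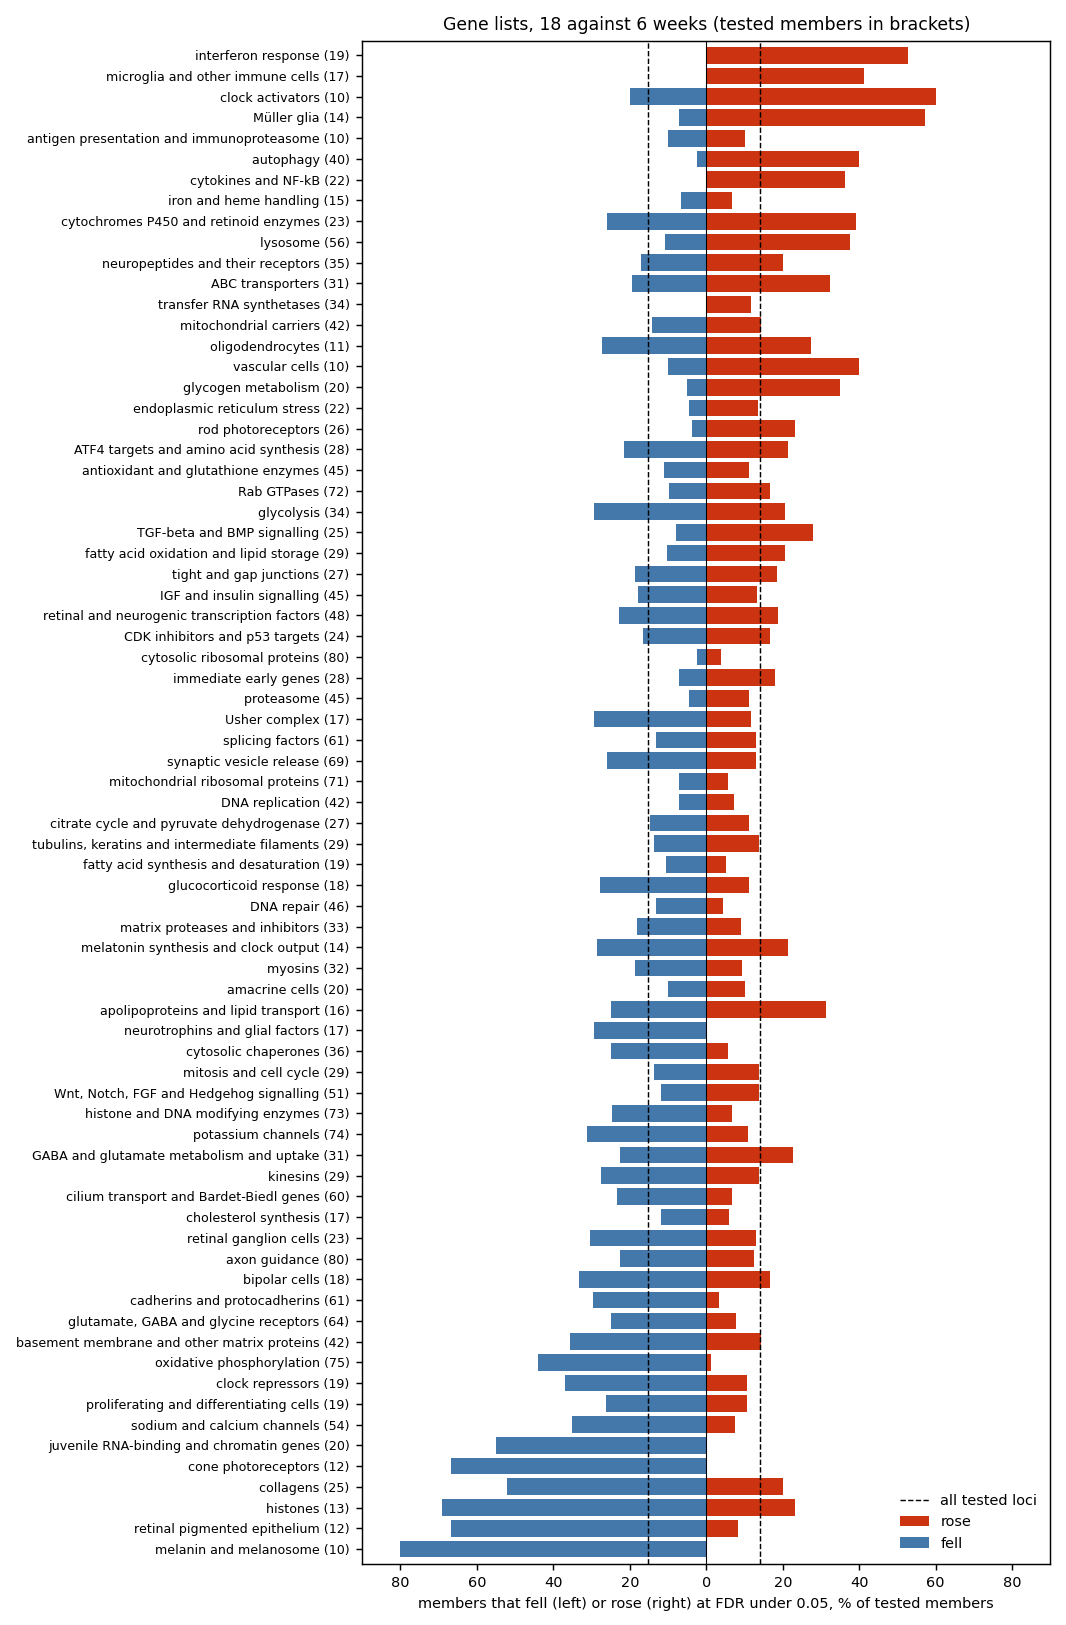
Percentage of tested loci that rose (right) or fell (left) between 6 and 18 weeks at FDR below 0.05 in each functional or cell type list with at least 10 tested loci, ordered by the median log2FC of the list. Dashed lines mark all tested loci, 14.0% risen and 15.2% fallen. Interferon and microglial genes are at one end, and melanin, RPE and histone genes at the other.

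The interferon response was the list with the highest median. This is the antiviral programme in which sensors of foreign or misplaced RNA trigger interferon, and interferon in turn activates STAT and IRF transcription factors. Of 19 tested members, 10 rose and none fell, with a median log2FC of 0.81 against 0.02 over all loci, and between 10 and 11 rose when any 1 of the 20 fish was left out. Every layer of the pathway had risen members. Among the sensors, IFIH1 and DHX58, helicases that bind double-stranded RNA in the cytoplasm, rose by 1.44 and 1.64 on the log2 scale. ZNFX1 (XLOC_015973), a helicase that senses viral RNA at mitochondria, lay between 0.702 and 13.0 CPM at 6 weeks (median 4.59) and between 7.18 and 62.0 CPM at 18 weeks (median 26.1), with a log2FC of 2.54 (SE 0.554, FDR = 0.00061). Here 7 of 10 old fish exceeded every young fish. TRIM25 (XLOC_003053), a ubiquitin ligase known for its part in RNA sensing, had levels between 2.14 and 7.11 CPM at 6 weeks (median 4.24) and between 7.46 and 38.5 CPM at 18 weeks (median 15.2), and all 10 old fish were above all young fish (log2FC of 1.99, SE 0.38, FDR = 0.000133).

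The signal transducers STAT1A, STAT2 and IRF9, which assemble into the factor that switches on interferon-stimulated genes, rose by 1.25, 1.05 and 1.66. IRF7, the regulator that amplifies interferon production, had a log2FC of 0.81 that did not pass the test (FDR = 0.0867). The largest log2FC lay among the effectors. RSAD2 (XLOC_022225), viperin, an enzyme that makes a chain-terminating nucleotide against viral polymerases, was between 0 and 1.42 CPM (median 0.635) at 6 weeks, where 4 fish had no read. It lay between 0.498 and 25.02 CPM (median 8.85) at 18 weeks, and 9 of 10 old fish exceeded all young fish (log2FC of 4.11, SE 0.903, FDR = 0.000661). ISG15, a ubiquitin-like modifier, and the RNA helicases MOV10 and HELZ2 rose by 4.80, 3.09 and 1.97. The spread among fish was wide. In the 12-week group, RSAD2 was at 71.4 and 65.9 CPM in fish 2 and 7, above the highest old fish, and at most 6.081 CPM in the other 8. Against the 12-week fish, the old fish had a log2FC of -0.55 (FDR = 0.586) for RSAD2 and a log2FC of 0.01 (FDR = 0.988) for TRIM25, neither past the threshold.

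Microglial and phagocyte genes were the next group. Of 17 tested markers, 7 rose and none fell, with a median of 0.63 (10 rose with the RPE covariate). This count rested on single young fish. It was 4 without fish 2 or fish 10 of the 6-week group and 13 without fish 8 of that group, whose mean marker level of 4.18 log2 CPM was above the 3.56 of the highest old fish, against a median of 2.41 for its age. CD68 (XLOC_015692), a lysosomal membrane protein of phagocytes, was between 1.17 and 7.61 CPM (median 3.71) at 6 weeks and between 7.85 and 22.5 CPM (median 11.6) at 18 weeks, with no overlap between the ages (log2FC of 1.76, SE 0.382, FDR = 0.000595). AIF1 (XLOC_010156), the calcium-binding protein Iba1 used to stain microglia, lay between 7.14 and 21.8 CPM at 6 weeks (median 8.32) and between 17.0 and 26.8 CPM at 18 weeks (median 18.4), with a log2FC of 1.001 (SE 0.185, FDR = 9.12e-05). Its young group overlapped the old one through fish 8 at 21.8 CPM. C1QC (XLOC_015830), a chain of the complement component C1q that microglia make and that tags synapses for removal, had levels between 1.19 and 16.2 CPM at 6 weeks (median 2.39) and between 3.98 and 10.8 CPM at 18 weeks (median 7.996). Its log2FC was 1.12 with fish 8, which held the highest value at 16.2 CPM, and 1.75 without it (FDR = 0.00829 and 3.41e-06). The log2FC of AIF1 was 1.22 without that fish.

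Genes of degradation rose alongside. Of 56 lysosomal genes, 21 rose and 6 fell, and of 40 autophagy genes, 16 rose and 1 fell. The risen lysosomal genes included the proteases CTSC (0.92), CTSZ (0.66) and CTSBA (0.47), the palmitoyl-protein thioesterase PPT1 (0.93), the iduronate sulfatase IDS (0.99) and the membrane protein LAMP2 (0.41), each by log2FC. RNASET2 (XLOC_011375), an acid ribonuclease that degrades RNA in lysosomes, lay between 2.68 and 8.38 CPM at 6 weeks (median 3.82) and between 11.9 and 22.1 CPM at 18 weeks (median 13.6), and every old fish exceeded every young fish (log2FC of 1.74, SE 0.166, FDR = 4.38e-10). The other locus of this name had -0.05 (FDR = 0.837). In autophagy, the cargo receptor SQSTM1 (p62) rose by 0.97, the ubiquitin-like proteins that coat the growing autophagosome, GABARAPL2 and MAP1LC3A, by 0.49 and 0.39, and VMP1, which acts where the autophagosome forms, by 0.46. One of 2 loci of ULK2, a kinase that starts the process, was the member that fell (-1.01). With the RPE score as a covariate 10 lysosomal and 6 autophagy genes rose, in a fit where 712 of all 13975 loci did.

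Among apolipoproteins and other lipid transport genes, 5 of 16 rose and 4 fell. APOC1 (XLOC_011194), a small protein of lipoprotein particles, was between 11.9 and 24.4 CPM (median 18.0) in young fish and between 34.5 and 61.7 CPM (median 41.8) in old fish, a separation shared by all 20 fish (log2FC of 1.31, SE 0.179, FDR = 7.52e-07). It was already at a mean of 37.8 CPM at 12 weeks. APOD, a lipid carrier of glia, and PLTP, which moves phospholipids between particles, rose by 0.88 and 0.79. With the RPE covariate neither passed (FDR = 0.206 and 0.0913), and 2 genes of this list rose and 1 fell. Of 22 cytokine and NF-kB genes, 8 rose and none fell. These included STAT3 (0.88), which carries cytokine signals to the nucleus, the NF-kB subunit REL (0.96), its inhibitor NFKBIE (0.71) and the chemokine CXCL12B (0.80). PTGS2 (XLOC_022967), cyclooxygenase 2, which makes prostaglandins, lay between 2.44 and 10.5 CPM at 6 weeks (median 4.17) and between 10.4 and 58.7 CPM at 18 weeks (median 19.8), and 9 of 10 old fish exceeded all young fish (log2FC of 2.21, SE 0.355, FDR = 1.17e-05). ANXA5A (XLOC_005380), an annexin that binds phosphatidylserine, had levels between 2.13 and 5.85 CPM at 6 weeks (median 3.64) and between 8.21 and 18.6 CPM at 18 weeks (median 10.5), with no overlap (log2FC of 1.68, SE 0.203, FDR = 7.91e-08). IER3, an early response gene known to limit cell death, rose by 1.71.

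**Figure D2:**
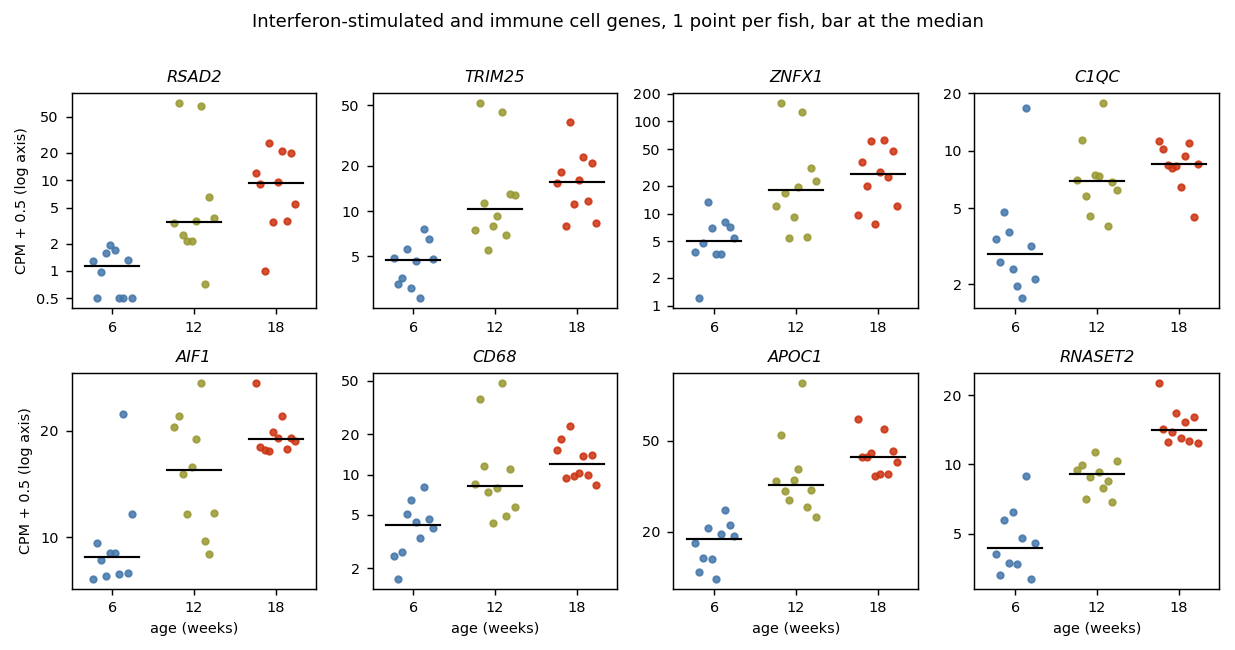
CPM plus 0.5 on a log axis for 8 immune, lysosomal and lipid transport genes at 6, 12 and 18 weeks, 1 point per fish with a bar at the group median (n = 10 fish per age). For TRIM25, CD68, APOC1 and RNASET2 all 10 old fish lie above all 10 young fish, whereas in RSAD2 the 2 highest fish are 12 weeks old and in C1QC 1 young fish lies above all old ones.

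Müller glia genes rose. Of 14 tested markers, 8 rose and 1 fell, with a median of 0.37 (8 or 9 risen without any 1 fish, and 5 with the RPE covariate). The risen members spanned the functions of this glia. They included GFAP (0.57), the intermediate filament that glia raise under stress, CLU (0.87), the extracellular chaperone clusterin, AQP4 (0.62), the water channel of glial endfeet, S1PR1 (0.60), a sphingolipid receptor, and GLUL (0.32), which converts glutamate to glutamine. With the RPE covariate AQP4 and GLUL did not pass (FDR = 0.197 and 0.245), and GFAP, CLU and S1PR1 did. The member that fell was FABP7A (XLOC_022174), a fatty acid binding protein of radial glia and progenitors. It lay between 144 and 265 CPM at 6 weeks (median 208) and between 62.0 and 144 CPM at 18 weeks (median 67.7), with a log2FC of -1.42 (SE 0.146, FDR = 2.51e-09). Every old fish was below every young one, fish 1 held the highest old value at 144 CPM, and the other 9 old fish were at most 79.8 CPM. Both steps passed the test, with a log2FC of -0.80 (FDR = 0.000644) from 6 to 12 weeks and a log2FC of -0.63 (FDR = 0.00356) from 12 to 18 weeks. These comparisons share fish with the main one and are given for their values only. Over all tested loci, 1.3% rose and 0.909% fell from 6 to 12 weeks, and 5.19% rose and 6.93% fell from 12 to 18 weeks.

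Glycogen, the sugar store that Müller glia hold in the retina, had 7 of 20 genes risen and 1 fallen, and 4 risen without fish 5 or fish 10 of the 6-week group. PPP1R3C (XLOC_001361), which brings a phosphatase to glycogen and thereby favours its synthesis, was between 22.0 and 40.5 CPM (median 33.3) at 6 weeks and between 44.3 and 67.3 CPM (median 51.6) at 18 weeks, with no overlap (log2FC of 0.78, SE 0.101, FDR = 3.28e-07). GYG1B, the primer on which glycogen is built, rose by 0.71. ABAT, which breaks down the transmitter GABA, rose by 0.77.

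Cone genes fell, and few rod genes did. Cones carry colour and daylight vision and rods dim-light vision, and each type has its own copies of the phototransduction proteins. Of 12 cone genes, 8 fell and none rose (median -0.49), and 8 or 9 fell without any 1 fish, and 6 of 26 rod genes rose and 1 fell (median 0.10). With library size alone, 5 cone genes fell and 2 rose, and 17 rod genes rose and 0 fell. With the RPE score as a covariate 3 cone genes fell and 2 rod genes rose. The difference between both lists was not tested. The mean level of the cone list was 8.58 to 9.14 log2 CPM in young and 7.92 to 8.47 in old fish, without overlap. The fallen genes included the transducin subunit GNAT2 (-0.31), the phosphodiesterase PDE6C (-0.90) and the opsin kinase GRK7A (-0.86). GNAT2 had -0.013 with library size alone (FDR = 0.918) and -0.075 with the RPE covariate (FDR = 0.767). With that covariate GRK7A did not pass (-0.43, FDR = 0.31), and PDE6C did (-0.56, FDR = 0.0158). GUCA1C (XLOC_012146), which activates guanylate cyclase when calcium falls and is known from cones in zebrafish, lay between 54.3 and 96.6 CPM at 6 weeks (median 69.7) and between 24.9 and 52.8 CPM at 18 weeks (median 29.99), with no overlap (log2FC of -1.104, SE 0.138, FDR = 1.53e-07). Its fall lay in the later step, with a log2FC of -0.10 (FDR = 0.8) from 6 to 12 weeks and a log2FC of -1.01 (FDR = 4.14e-06) from 12 to 18 weeks.

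On the rod side, the channel subunit CNGB1A (0.53), the arrestin SAGA (0.36) and the phosphodiesterase subunit PDE6G (0.23) rose. None of these passed with the RPE covariate (FDR = 0.0702, 0.553 and 0.0544, in the same order). GRK1B (XLOC_017701), listed with the rods for its rhodopsin kinase family although its zebrafish relative is known from cones, lay between 56.7 and 93.4 CPM at 6 weeks (median 73.1) and between 34.0 and 259 CPM at 18 weeks (median 141), with 9 old fish above all young fish and fish 1 below them (log2FC of 0.96, SE 0.188, FDR = 0.000176). The locus named GRK1 fell (-0.53). It did not pass with library size alone (FDR = 0.198) or with the RPE covariate (FDR = 0.163).

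Loci of several structural genes of the photoreceptor and of a synaptic scaffold fell. RP1L1 (XLOC_008956), a protein of the axoneme that keeps outer segment discs in register, was between 533 and 1315 CPM (median 829.7) at 6 weeks and between 149.6 and 475 CPM (median 347) at 18 weeks, every old fish below every young one (log2FC of -1.34, SE 0.175, FDR = 3.44e-07). RPGRB (XLOC_001787), a regulator of transport through the connecting cilium, lay between 5.58 and 14.7 CPM at 6 weeks (median 11.4) and between 0.943 and 5.59 CPM at 18 weeks (median 3.90), and 9 of 10 old fish were below all young fish (log2FC of -1.47, SE 0.196, FDR = 4.82e-07). The other RPGRB locus had a log2FC of -0.20 (FDR = 0.29), and the other RP1L1 locus fell too (-0.69). PCLOA (XLOC_004899), piccolo, a scaffold of the active zone where vesicles are released, had levels between 688 and 1039 CPM at 6 weeks (median 894) and between 250.5 and 507 CPM at 18 weeks (median 422), again without overlap (log2FC of -1.05, SE 0.108, FDR = 2.58e-09). In all 3, fish 1 held the lowest old value, and the log2FC without it was -1.26, -1.36 and -0.99. One of 2 CEP290 loci, a gate protein of the cilium, fell by 1.14 on the log2 scale, while the other, at a mean of 92.2 CPM at 6 weeks, had -0.11 (FDR = 0.335). UNC119, which carries lipid-anchored transducin, fell by 0.95, and the 2 loci of IMPG2, a proteoglycan of the matrix around the outer segments, by 1.11 and 0.92. EYS, an extracellular protein needed for photoreceptor survival in humans and zebrafish, had a log2FC of -1.004. Its log2FC lay between -1.11 and -0.85 when any 1 fish was left out. With the RPE covariate EYS and the fallen CEP290 locus did not pass (FDR = 0.141 and 0.0835), whereas RP1L1, RPGRB, PCLOA and UNC119 did. Over the list of cilium transport and Bardet-Biedl genes, 14 of 60 fell and 4 rose. With library size alone 7 fell and 14 rose, and with the RPE covariate 3 fell.

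Circadian clock genes changed on both arms of the clock, and in both directions on each. In this oscillator CLOCK and BMAL1 (ARNTL) activate the PER, CRY, REV-ERB and BHLHE genes, whose products repress the activators in turn. Of 10 activators, 6 rose and 2 fell (median 0.50), and of 19 repressors, 2 rose and 7 fell (median -0.24). A log2FC of at least 1 in size was met by 2 risen activators and by 1 fallen activator, which is not named here. With library size alone, 6 activators rose and 0 fell, and 6 repressors rose and 4 fell. With the RPE score as a covariate, 2 activators rose and 4 repressors fell. CLOCK (XLOC_023568) was between 5.57 and 10.5 CPM (median 6.78) in young and between 11.4 and 23.5 CPM (median 17.4) in old fish, without overlap (log2FC of 1.22, SE 0.152, FDR = 1.49e-07). ARNTL (XLOC_019435) lay between 2.18 and 10.6 CPM at 6 weeks (median 5.73) and between 6.68 and 18.5 CPM at 18 weeks (median 12.8), and 8 of 10 old fish were above all young fish (log2FC of 1.15, SE 0.207, FDR = 6.17e-05). NPAS2, which can stand in for CLOCK, rose by 0.78.

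The repressor BHLHE41 (XLOC_019293) had levels between 101 and 193 CPM at 6 weeks (median 149.7) and between 56.8 and 83.9 CPM at 18 weeks (median 72.3), with no overlap (log2FC of -1.103, SE 0.114, FDR = 2.75e-09), and its relative BHLHE40 fell as well (-0.45). CIARTA (XLOC_024507), whose mammalian relative CHRONO represses the CLOCK and BMAL1 pair, lay between 5.67 and 22.4 CPM at 6 weeks (median 14.5) and between 0.189 and 8.73 CPM at 18 weeks (median 4.37), and 7 of 10 old fish were below all young fish (log2FC of -1.57, SE 0.289, FDR = 8.25e-05). PER1, PER3 and NR1D1 (REV-ERB alpha) fell by 0.78, 0.53 and 0.79 on the log2 scale, and CRY2A went the other way (0.60). With the RPE covariate BHLHE40, CIARTA, NPAS2 and CRY2A did not pass (FDR = 0.324, 0.0744, 0.34 and 0.316, in the same order). BHLHE40 did not pass with library size alone either (FDR = 0.311). CLOCK, ARNTL, BHLHE41, PER1, PER3 and NR1D1 passed in both of these fits. CLOCK, ARNTL, BHLHE41 and CIARTA all moved mainly after 12 weeks, with 18 against 12 week log2FC of 0.80, 1.13, -0.81 and -1.34 and 12 against 6 week values of 0.42, 0.02, -0.29 and -0.23. The hour at which fish of each age were collected was not found in the sources used here, and its part in these differences was not tested.

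Melatonin, the night hormone that photoreceptors make under clock control, had its timing enzyme among the clearest rises. AANAT (XLOC_008564, 1 of 3 loci with this name) was between 12.9 and 24.8 CPM (median 18.5) at 6 weeks, at a mean of 32.99 CPM at 12 weeks and between 45.4 and 91.6 CPM (median 80.5) at 18 weeks, every old fish above every young one (log2FC of 2.003, SE 0.147, FDR = 6.43e-13). The other AANAT loci had 0.36 and 0.30 on the log2 scale and did not pass the test. With the RPE score as a covariate the log2FC was 1.70. DDC, which makes dopamine and serotonin, the precursor of melatonin, rose by 0.80, and ASMT, the last enzyme of the path, had a log2FC of -0.10 that did not pass the test (FDR = 0.609).

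**Figure D3:**
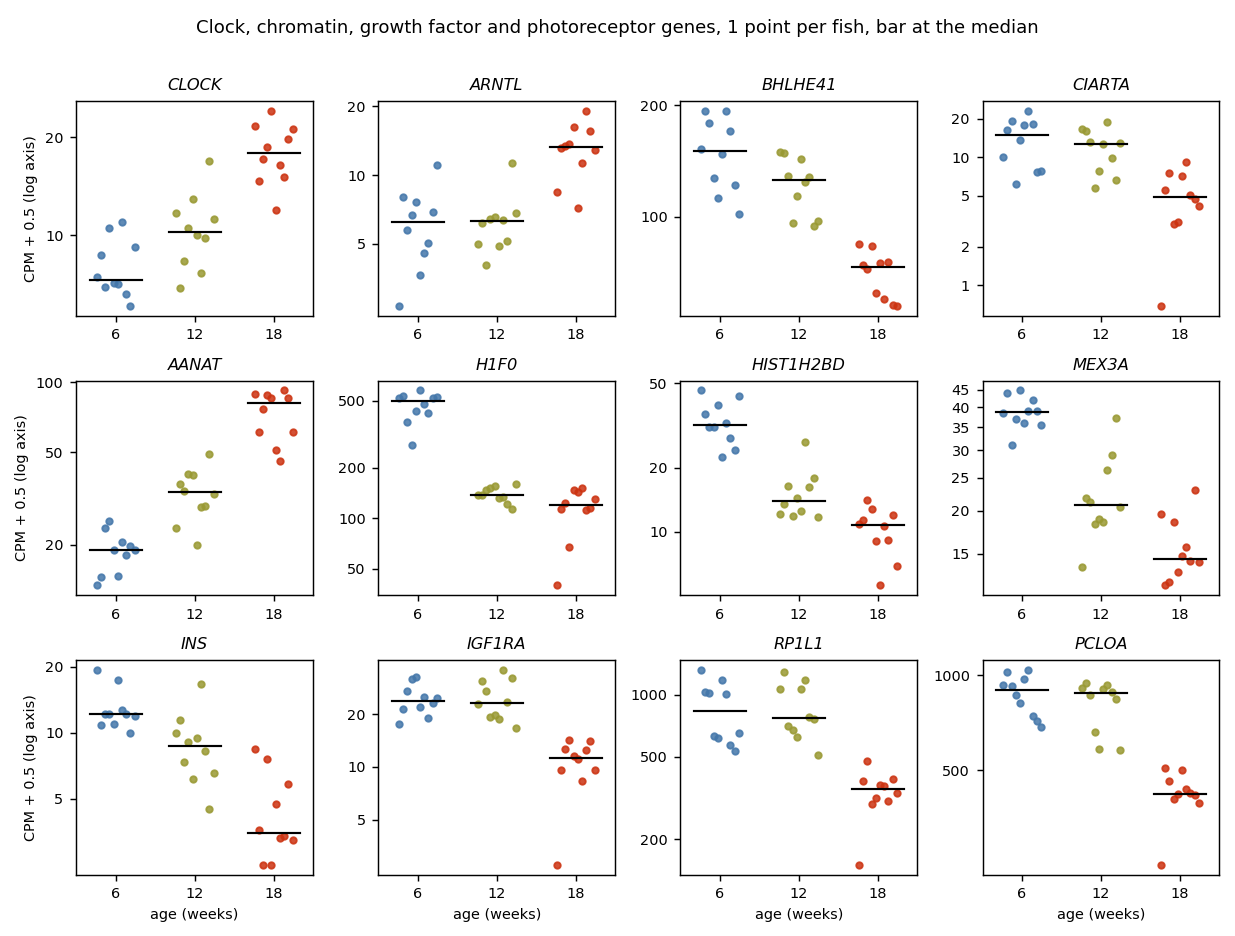
CPM plus 0.5 on a log axis for 12 clock, chromatin, growth, photoreceptor and synaptic genes at 6, 12 and 18 weeks. Each point is 1 fish, with a bar at the group median (n = 10 fish per age). CLOCK, ARNTL and AANAT are higher in old fish and the other 9 genes lower. H1F0 is already low at 12 weeks, whereas IGF1RA, RP1L1 and PCLOA are low only at 18 weeks.

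Genes of the RPE, of melanin and of the visual cycle were lower in old fish. The visual cycle regenerates the light-sensitive retinoid in the RPE. Of 12 RPE markers, 8 fell and 1 rose (median -1.13), and of 10 melanin genes, 8 fell (median -1.34). The RPE was rinsed off at dissection, so that these levels measure what remained on each retina, and remaining tissue and expression cannot be told apart. STRA6 (XLOC_013243, 1 of 2 loci with this name), the receptor through which the RPE takes up retinol, lay between 47.3 and 117 CPM at 6 weeks (median 65.7) and between 7.36 and 35.1 CPM at 18 weeks (median 15.7), with a log2FC of -1.97 (SE 0.29, FDR = 2.89e-06). RGRB (XLOC_018770), an opsin of the RPE that takes part in retinoid isomerisation, had levels between 172 and 449 CPM at 6 weeks (median 293) and between 47.8 and 142 CPM at 18 weeks (median 80.5), with a log2FC of -1.82 (SE 0.277, FDR = 5.04e-06). SLC16A1 (XLOC_016491), a lactate carrier, was between 6.68 and 21.2 CPM (median 11.6) in young and between 1.64 and 6.63 CPM (median 3.39) in old fish (log2FC of -1.92, SE 0.295, FDR = 5.6e-06). In each of these loci all old fish were below all young fish. The other SLC16A1 locus, at 59.4 CPM on average in young fish, rose (0.72, FDR = 3.09e-07), and the other STRA6 locus fell (-1.20).

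Other members lay in the same range, with RLBP1B (-1.34), a retinal carrier found in the RPE of zebrafish, RBP1A (-1.06), a cellular retinol carrier, and the melanin genes OCA2 (-1.77), SLC24A5 (-1.76), PMELB (-1.64) and DCT (-1.45). MSNB (XLOC_004328), a moesin that links membrane and actin, lay between 42.4 and 103 CPM at 6 weeks (median 63.3) and between 5.47 and 35.8 CPM at 18 weeks (median 16.1), without overlap (log2FC of -1.88, SE 0.278, FDR = 3.08e-06). GATM, which makes the creatine precursor, and TM6SF2, known from lipid export in the liver, fell by 1.75 and 1.87 on the log2 scale. With the RPE score as a covariate, built in part from such genes, the log2FC was -0.26 for STRA6, -0.21 for RGRB, -0.31 for SLC16A1, -0.26 for MSNB and -0.30 for PMELB, and it turned to 0.24 for RLBP1B, 0.16 for RBP1A and 0.01 for DCT. RBP3 (XLOC_018479), which ferries retinoids between RPE and photoreceptors and is made by the photoreceptors, was between 224 and 544 CPM (median 294) at 6 weeks and between 44.5 and 198 CPM (median 105) at 18 weeks (log2FC of -1.53, SE 0.288, FDR = 0.000109), and 0.20 on the log2 scale with the covariate. RDH8A, which reduces retinal in the outer segment, fell by 1.01 on the log2 scale and had 0.29 with the covariate.

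Not all retinoid genes followed. Of 23 cytochrome P450 and retinoid genes, 9 rose and 6 fell. RBP4, the retinol carrier of the blood, rose by 0.87, CYP27A2 by 1.93, and MERTK, the receptor by which the RPE engulfs outer segments, had a log2FC of 0.42 (FDR = 0.196). CYP27C1 (XLOC_012865), which in zebrafish turns vitamin A1 into A2 and thereby shifts cone sensitivity to longer wavelengths, lay between 29.6 and 65.4 CPM at 6 weeks (median 39.1) and between 18.11 and 325 CPM at 18 weeks (median 39.8), with a log2FC of 1.45 (SE 0.369, FDR = 0.00294). The medians of both ages were nearly equal, and the difference lay in 4 old fish above all young ones, whereas 2 old fish were below all young ones. CYP24A1 (XLOC_016665), which inactivates vitamin D, had levels between 1.87 and 9.18 CPM at 6 weeks (median 5.46) and between 0.754 and 27.7 CPM at 18 weeks (median 8.34), with 4 old fish above all young fish (log2FC of 1.19, SE 0.321, FDR = 0.00482).

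Histone genes fell. Of 13 tested loci, 9 fell and 3 rose (median -0.86), with 9 fallen and 3 risen without any 1 fish, 8 fallen with library size alone and 7 fallen with the RPE covariate. Histones package DNA, and those made in S phase mostly lack the poly(A) tail on which these libraries depend. Several loci are near-identical copies, so that the assignment of reads among them is uncertain. H1F0 (XLOC_018411), a linker histone that accumulates in cells that stop dividing, was between 272 and 576 CPM (median 498) in young fish, at a mean of 138 CPM at 12 weeks and between 39.2 and 150.1 CPM (median 119) in old fish (log2FC of -2.04, SE 0.151, FDR = 6.66e-13). Its fall lay between 6 and 12 weeks, with a log2FC of -1.75 (FDR = 1.49e-10), and the later step had a log2FC of -0.28 (FDR = 0.212). An H2B locus, HIST1H2BD (XLOC_005749, 1 of 5 with this name), lay between 21.9 and 45.8 CPM at 6 weeks (median 31.2) and between 5.10 and 13.7 CPM at 18 weeks (median 10.2), without overlap (log2FC of -1.76, SE 0.159, FDR = 1.58e-10), and the other 4 loci of this name fell as well. H2B fell by 1.32 and H2AX, the variant phosphorylated at DNA breaks, by 0.55 on the log2 scale, whereas HIST1H1T rose (0.69). H2AX passed neither with library size alone (FDR = 0.224) nor with the RPE covariate (FDR = 0.118), whereas H2B and HIST1H1T passed in both fits.

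Juvenile RNA-binding and chromatin genes moved the same way, with 11 of 20 fallen and none risen, and 9 to 11 fallen without any 1 fish. With library size alone 6 fell and 3 rose, and with the RPE covariate 4 fell. MEX3A (XLOC_010365), an RNA-binding protein of stem and progenitor cells, lay between 30.5 and 44.3 CPM at 6 weeks (median 38.3) and between 11.7 and 22.6 CPM at 18 weeks (median 14.0), every old fish below every young one (log2FC of -1.32, SE 0.132, FDR = 1.34e-09). SOX4B, SOX11A and MYCN, transcription factors of immature neurons and progenitors, fell by 0.71, 0.36 and 0.52 on the log2 scale, the tubulin regulator STMN1A by 1.02 and the deacetylase HDAC12 by 1.52. SOX11A and MYCN passed neither with library size alone (FDR = 0.597 and 0.115) nor with the RPE covariate (FDR = 0.0555 and 0.368). STMN1A did not pass with the covariate (FDR = 0.243), whereas MEX3A, SOX4B and HDAC12 passed in both fits. Retinal and neurogenic transcription factors as a list had no common direction, with 11 fallen and 9 risen of 48 (median 0.04), 4 and 21 with library size alone and 4 and 1 with the RPE covariate. Among the fallen, ONECUT1, a factor of horizontal and ganglion cells, fell by 1.47, 1 of 2 loci of the neurogenic factor NEUROD2 by 1.01, and 1 of 2 loci of the Notch target HES5 by 1.09. Of 19 markers of proliferating and differentiating cells, 5 fell and 2 rose. With library size alone 2 fell and 5 rose, and with the RPE covariate none fell.

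Cell division genes gave no common direction, with 4 risen and 4 fallen of 29 (2 risen without fish 4 or 9 of the 6-week group or fish 9 of the 18-week group), and 3 risen and 3 fallen of 42 replication genes. These counts became 10 risen and 3 fallen, and 14 and 0, with library size alone. The fallen ones included SMC4 (XLOC_012041), a subunit of condensin, which compacts chromosomes. It lay between 11.1 and 32.9 CPM at 6 weeks (median 22.3) and between 8.94 and 16.9 CPM at 18 weeks (median 9.70), and 7 of 10 old fish were below all young fish (log2FC of -1.096, SE 0.135, FDR = 1.06e-07). CENPF, a kinetochore protein, fell by 1.67, CCND1, the cyclin that admits cells to the cycle, by 1.13 and LIG1, the ligase that joins Okazaki fragments, by 0.54 on the log2 scale. GINS2, a part of the replicative helicase, rose by 0.55.

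Collagens and other matrix genes moved in both directions. Of 25 collagens, 13 fell and 5 rose, and of 42 other matrix genes, 15 fell and 6 rose. Without fish 6 of the 6-week group, 10 collagens fell and 6 rose. With library size alone the collagens had 5 fallen and 5 risen, and with the RPE covariate 4 collagens and 6 other matrix genes fell. Collagen I, the fibrillar collagen of skin, sclera and cornea, had the lowest log2FC values of the list, and fish 6 of the 6-week group carried it. COL1A1A (XLOC_022399) was at 934 CPM in that fish, 0.991 to 13.5 CPM in the other 9 young fish and between 0.175 and 1.76 CPM (median 0.558) in old fish. Its log2FC was -6.85 with fish 6 and -2.43 without it (FDR = 0.0354). COL1A1B (XLOC_018208) and COL1A2 (XLOC_015053) were at 1514 and 1178 CPM in fish 6, and their log2FC went from -6.64 and -5.11 to -1.77 (FDR = 0.112) and -1.31 (FDR = 0.136) without it. KRT5 (XLOC_021833), the keratin of basal epithelium, stood at 465 CPM in the same fish and went from -1.80 to -0.18 (FDR = 0.635), and the desmosome gene DSP from -1.74 to -0.94 (FDR = 0.07). Fish 3 of the 12-week group was also high, with 115 CPM of COL1A1A and 58.3 CPM of KRT5.

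Other matrix genes did not rest on fish 6. BGNB (XLOC_002504), the proteoglycan biglycan, lay between 5.97 and 19.0 CPM at 6 weeks (median 7.60) and between 1.40 and 4.61 CPM at 18 weeks (median 2.73), without overlap (log2FC of -1.67, SE 0.234, FDR = 1.06e-06), and its log2FC was -1.49 without fish 6. THBS1B (XLOC_009111), a thrombospondin that binds matrix and limits vessel growth, had levels between 21.9 and 55.3 CPM at 6 weeks (median 37.0) and between 8.86 and 20.8 CPM at 18 weeks (median 15.3), also without overlap (log2FC of -1.28, SE 0.226, FDR = 4.86e-05), and a log2FC of -0.0035 with the RPE covariate. COL9A1 and COL2A1A, collagens of cartilage and vitreous, fell by 1.24 and 0.67 on the log2 scale, COL5A3A by 1.12, LOX, which crosslinks collagen, by 1.26 and SPARC, a matrix glycoprotein of glia, by 0.75. COL9A1 and COL2A1A turned to 0.73 and 0.12 with the RPE covariate. HAPLN4, a link protein of the net around synapses, fell by 1.73.

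Among the risen matrix genes were COL6A1 (0.62), COL6A2 (0.65), COL18A1 (0.54), NID1A (0.96) and LAMA5 (0.52), components of microfibrils and basement membranes, although the basement membrane collagen COL4A6 fell (-0.75). Elastin, ELNA, rose by 1.39. None of these risen genes passed the test with the RPE covariate, where FDR lay between 0.109 for NID1A and 0.654 for COL6A1, and 2 collagens and 1 other matrix gene rose. COL23A1 (XLOC_004415), a transmembrane collagen, lay between 0.81 and 2.44 CPM at 6 weeks (median 1.52) and between 1.99 and 6.38 CPM at 18 weeks (median 5.21), and 9 of 10 old fish were above all young fish (log2FC of 1.56, SE 0.238, FDR = 4.95e-06). The contractile genes MYL9 and ACTA2, known from smooth muscle and pericytes, rose by 1.05 and 1.34, and ACTA2 did not pass with the covariate (FDR = 0.379).

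**Figure D4:**
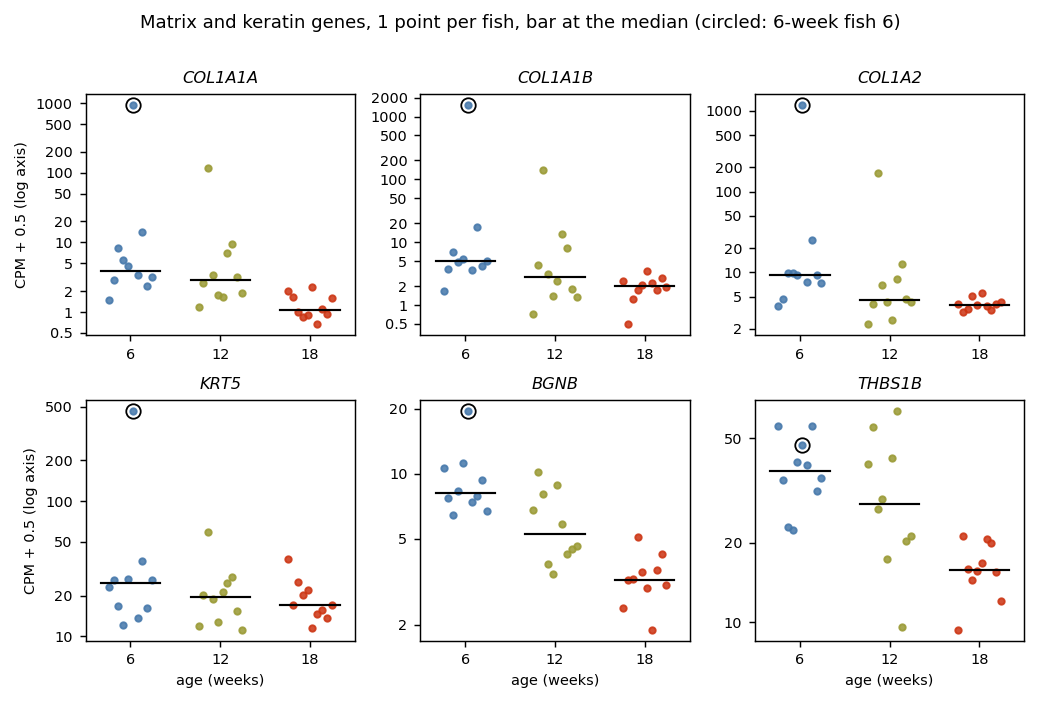
CPM plus 0.5 on a log axis for 6 matrix and epithelial genes at 6, 12 and 18 weeks, 1 point per fish with a bar at the group median (n = 10 fish per age) and fish 6 of the 6-week group circled. In the collagen I genes and KRT5 the circled fish lies far above the rest of its age, whereas in BGNB and THBS1B all old fish lie below all young fish with or without it.

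Genes of excitability and of cell contact fell more often than they rose in the TMM-scaled fit. Of 54 sodium and calcium channel genes, 19 fell and 4 rose. With library size alone 6 fell and 13 rose, beside 637 fallen and 6441 risen of all 13975 loci. Without any 1 of fish 1, 2, 3 and 7 of the 6-week group and fish 8 and 10 of the 18-week group, 2 rose. The same counts were 23 fallen and 8 risen of 74 potassium channels (5 and 30 with library size alone), and 16 and 5 of 64 glutamate, GABA and glycine receptors (3 and 18). Cadherins and protocadherins, which hold neurons together and let them tell each other apart, had 18 fallen and 2 risen of 61 (5 and 17). Axon guidance genes had 18 and 10 of 80 (8 and 25). Risen receptors numbered 3 without fish 1 of the 18-week group, and risen axon guidance genes 6 without fish 1 or fish 9 of the 6-week group. With the RPE covariate the fallen members numbered 15, 12, 16, 12 and 14 in these lists, in the same order.

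Single genes of these lists fell under either scaling, and CACNA1BA and GRIN1A had a log2FC of -1.46 and -0.78 with library size alone. CACNA1BA (XLOC_002478), the pore of the presynaptic N-type calcium channel, lay between 3.66 and 7.38 CPM at 6 weeks (median 6.31) and between 0.189 and 3.84 CPM at 18 weeks (median 1.97), with a log2FC of -1.75 (SE 0.251, FDR = 1.8e-06). GRIN1A (XLOC_016967), the obligatory subunit of NMDA receptors, had levels between 20.5 and 30.8 CPM at 6 weeks (median 25.4) and between 1.13 and 20.8 CPM at 18 weeks (median 12.8), and 9 of 10 old fish were below all young fish (log2FC of -1.08, SE 0.197, FDR = 7.54e-05). The other GRIN1A locus was more abundant, at 139 and 140.3 CPM on average at 6 and 18 weeks, and had a log2FC of 0.01 (FDR = 0.925), whereas the other CACNA1BA locus fell (-0.65). CACNB3B and CACNG6B, accessory channel subunits, fell by 1.08 and 1.16 on the log2 scale, the metabotropic receptor GRM5 by 1.25, 1 of 6 loci of the clustered protocadherin PCDH2AC by 1.31, the guidance receptor ROBO3 by 1.06 and STX3A, a syntaxin of the photoreceptor ribbon synapse, by 1.01. NRP2B (XLOC_020748), a co-receptor for semaphorins, was between 3.17 and 8.10 CPM (median 6.27) at 6 weeks and between 0.524 and 3.23 CPM (median 2.13) at 18 weeks, with 9 of 10 old fish below all young fish (log2FC of -1.62, SE 0.254, FDR = 8.15e-06).

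Some neural genes rose against this. GABRB1 (XLOC_022429), a subunit of the GABA-A receptor, lay between 2.11 and 5.98 CPM at 6 weeks (median 3.43) and between 5.63 and 12.0 CPM at 18 weeks (median 8.55), and 9 of 10 old fish exceeded all young fish (log2FC of 1.23, SE 0.187, FDR = 4.82e-06). CCK (XLOC_014387, 1 of 2 loci with this name), the neuropeptide cholecystokinin, was between 8.66 and 17.1 CPM (median 11.6) in young fish, at a mean of 20.1 CPM at 12 weeks and between 31.5 and 57.1 CPM (median 39.7) in old fish, without overlap (log2FC of 1.73, SE 0.159, FDR = 2e-10). The other CCK locus rose as well (0.97). ADCYAP1R1, the receptor of the neuropeptide PACAP, and the potassium channel KCNK6 rose by 1.13 and 1.01. NPY2R (XLOC_005902), a receptor for neuropeptide Y, fell, with levels between 4.68 and 22.7 CPM at 6 weeks (median 14.4) and between 1.99 and 6.198 CPM at 18 weeks (median 3.44) and 7 of 10 old fish below all young fish (log2FC of -1.95, SE 0.319, FDR = 1.56e-05). Its log2FC was -0.35 with the RPE covariate, and the other NPY2R locus had 0.22 (FDR = 0.304).

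In insulin and IGF signalling, which drives growth and is known to limit life span in many animals, ligands and receptor were lower. INS (XLOC_004333), the gene of insulin, was between 9.48 and 18.8 CPM (median 11.6) at 6 weeks and between 1.99 and 7.92 CPM (median 2.995) at 18 weeks (log2FC of -1.62, SE 0.224, FDR = 9.11e-07). IGF1RA (XLOC_019732), a receptor of insulin-like growth factor 1, lay between 17.1 and 32.2 CPM at 6 weeks (median 23.4) and between 2.26 and 13.7 CPM at 18 weeks (median 10.8), with a mean of 24.2 CPM at 12 weeks (log2FC of -1.24, SE 0.177, FDR = 1.54e-06). In both genes all old fish were below all young fish. IGF1 (XLOC_004951) itself had levels between 6.598 and 11.9 CPM at 6 weeks (median 8.26) and between 1.095 and 8.79 CPM at 18 weeks (median 3.52), and 9 of 10 old fish were below all young fish (log2FC of -1.12, SE 0.215, FDR = 0.000144). With the RPE covariate the log2FC of INS was -1.21 and that of IGF1RA -1.02. Downstream, both IRS2 loci fell by 0.60 and 0.55 on the log2 scale, the kinase subunit PIK3R2 fell by 1.03 and TSC1, a brake on mTOR, rose by 0.79. Neither IRS2 locus passed with library size alone (-0.31, FDR = 0.0612, and -0.25, FDR = 0.125). Both passed with the RPE covariate (FDR = 0.0255 and 0.0248), and TSC1 did not (0.58, FDR = 0.207). Over the whole list of 45 genes, 6 rose and 8 fell (median 0.04), and 22 rose and 4 fell with library size alone.

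Energy metabolism was followed in 2 pathways. Oxidative phosphorylation, the respiratory chain of mitochondria, had 33 of 75 genes fallen and 1 risen, with small changes (median -0.23) such as those of COX6B2 (-0.46), UQCRC1 (-0.48), UQCRQ (-0.42), ATP5O (-0.47) and ATP5J (-0.39). The count of fallen members was 51 without fish 1 of the 18-week group, 0 with library size alone, where 9 rose, and 0 with the RPE covariate. The risen member was 1 of 3 NDUFA4 loci (0.52). Glycolysis had 7 risen and 10 fallen of 34 (19 and 5 with library size alone), and 2 and 5 with the RPE covariate. PKMB (XLOC_019126), a pyruvate kinase, lay between 0.397 and 2.27 CPM at 6 weeks (median 0.857) and between 2.11 and 5.32 CPM at 18 weeks (median 2.81), and 9 of 10 old fish were above all young fish (log2FC of 1.67, SE 0.33, FDR = 0.000201). With the RPE covariate PKMB had 0.98 and did not pass (FDR = 0.206). The aldolase ALDOCA rose by 1.097, the phosphofructokinase PFKL fell by 0.85, and of 2 LDHB loci, both lactate dehydrogenases, one had a log2FC of 0.35 and the other of -0.60.

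In lipid and redox metabolism, DGAT2 (XLOC_017600), which makes the last bond of triglycerides, was between 4.21 and 11.7 CPM (median 5.50) in young and between 1.06 and 2.74 CPM (median 2.002) in old fish, every old fish below every young one (log2FC of -1.72, SE 0.235, FDR = 7.52e-07). The lipid droplet coat PLIN1 rose by 1.08. SOD3 (XLOC_006540), the superoxide dismutase secreted into the matrix, lay between 2.43 and 8.72 CPM at 6 weeks (median 4.87) and between 0.189 and 2.49 CPM at 18 weeks (median 0.72), and 9 of 10 old fish were below all young fish (log2FC of -2.29, SE 0.325, FDR = 1.44e-06). Antioxidant and glutathione genes as a list had 5 risen and 5 fallen of 45, and 25 and 3 with library size alone. CDO1, which breaks down cysteine, rose by 1.29.

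The machinery of protein production and upkeep was nearly level relative to all loci. Of 80 cytosolic ribosomal protein genes, 3 rose and 2 fell (median 0.03), with RPS28 (0.34) and 1 of 2 RPL19 loci (-0.34) among them, although 12 fell without fish 1 of the 18-week group. Of 45 proteasome genes, 5 rose and 2 fell (median 0.02), with 3 risen without fish 5 of the 18-week group. PSMD13 of the regulatory cap had 0.48 and PSMA4 of the core -0.32. Splicing factors had 8 risen and 8 fallen of 61, with 5 risen without fish 1 of the 18-week group or fish 4 of the 6-week group and 4 without fish 2 of the 6-week group, and tRNA synthetases 4 risen of 34, among them SARS (0.45). DNA repair had 2 risen and 6 fallen of 46. The fallen ones included ERCC6 and XPC, which find damage for nucleotide excision repair and had a log2FC of -0.57 and -0.54. Among cytosolic chaperones 9 of 36 fell and 2 rose, and the small heat shock protein HSPB6 fell by 1.39 on the log2 scale. With the RPE covariate no chaperone of the list fell, 3 rose, and HSPB6 had -0.81 (FDR = 0.216). DNA repair had 2 fallen in that fit. These shares of risen and fallen members lay at or under the 14.0% and 15.2% of all loci, except for the fallen chaperones. With library size alone more members rose than fell in each of these lists, as they did over all loci. For example, 59 ribosomal, 29 proteasome and 12 chaperone genes rose against 0, 0 and 2 fallen.

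**Figure D5:**
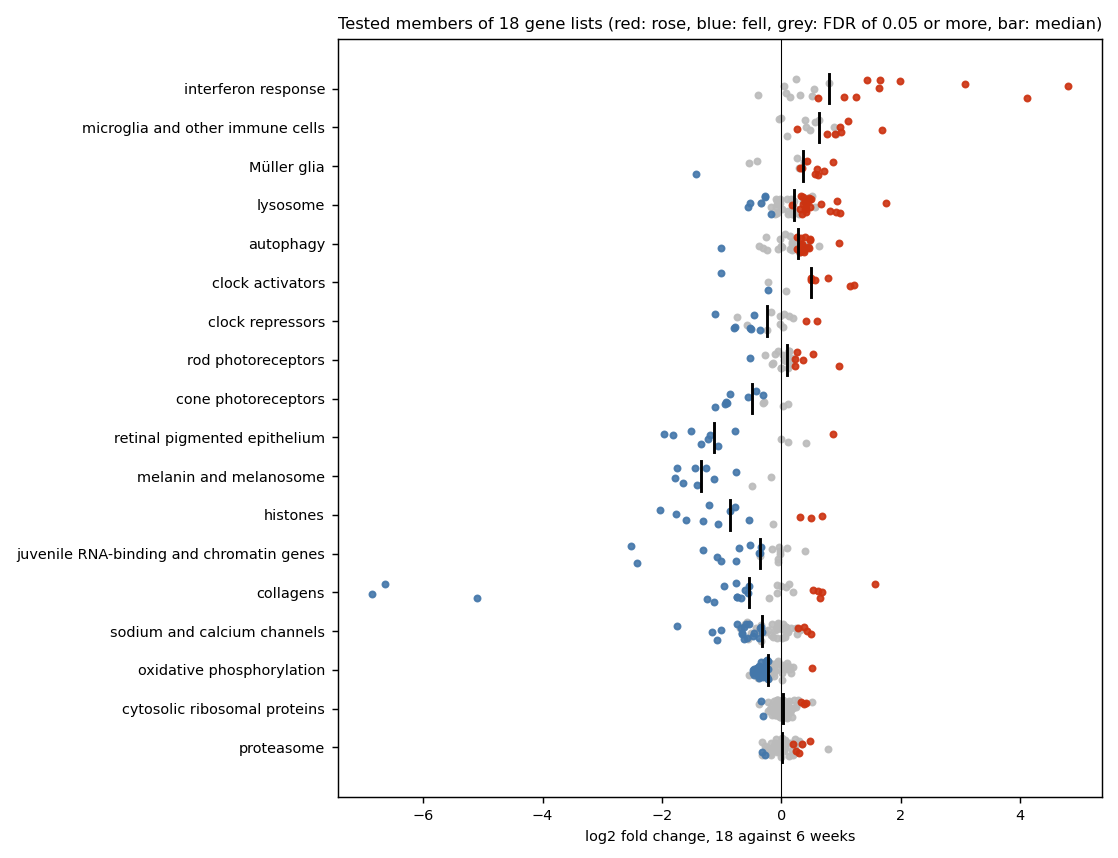
Log2FC between 6 and 18 weeks of every tested member in 18 functional lists, 1 point per locus, with the median of each list marked. Values above 0 are higher in old fish. Interferon members reach the highest values and lie mostly above 0, whereas cytosolic ribosomal and proteasome members lie close to 0.

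Some large changes fell in none of these groups. DNAI1 (XLOC_020595), a dynein chain known from motile cilia, lay between 0.714 and 11.9 CPM at 6 weeks (median 6.094) and between 7.48 and 77.2 CPM at 18 weeks (median 31.7), and 9 of 10 old fish were above all young fish (log2FC of 2.60, SE 0.356, FDR = 7.52e-07). SPINT2, an inhibitor of membrane proteases, rose by 2.45, GPSM1A, a modulator of G proteins, by 1.98, ASGR1, a lectin receptor, by 1.94, 1 of 2 loci of LDLRAP1B, an adaptor for lipoprotein uptake, by 1.74 and the junction protein F11R by 1.32. NIN (XLOC_022542), ninein, which anchors microtubules at the centrosome, was between 4.88 and 18.2 CPM (median 9.44) at 6 weeks and between 0.698 and 4.74 CPM (median 2.09) at 18 weeks, every old fish below every young one (log2FC of -2.0004, SE 0.313, FDR = 7.78e-06). It had a mean of 9.17 CPM at 12 weeks. FOSB, an immediate early gene, fell by 1.69 on the log2 scale. Of 28 tested immediate early genes, 5 rose (17.9%) and 2 fell (7.1%), beside 14.0% and 15.2% of all loci. Of the 201 loci named, with those of the closing observations, 72 lay outside the rule by which genes were picked and were chosen after their values were seen. They are given mostly by log2FC alone.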

How the data were processed

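Both retinas of each of 30 female fish (10 each at 6, 12 and 18 weeks) were sequenced with a QuantSeq 3′ protocol. Per the labels and the study's methods, the authors trimmed reads (Trim Galore 0.6.7, cutadapt 3.4), aligned them with STAR 2.7.0 to a transcriptome built on the GRZ draft assembly and deposited raw counts per locus from HTSeq 0.11.2. The strand setting of the counting is not given in the sources used here. Reads outside loci made up 18.0 to 27.7% and ambiguous reads 0.838 to 1.85% of the 20 libraries, and both were left out. The 20 libraries held 3626678 to 5840792 counts on 24989 loci, which limits loci of a few CPM most. The deposited series table pairs loci with gene names and holds the authors' per-gene summaries over single cells. Only its names were used. Nothing states that fish came from separate tanks or clutches, so that the tests measure the spread between these fish.

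Counts were filtered with filterByExpr, scaled with TMM and tested in edgeR 4.0.16 (R 4.3.3) with a quasi-likelihood fit over all 30 fish, and adjusted by Benjamini-Hochberg over 13975 loci. CPM, computed here from the deposited counts, used the TMM-scaled library sizes. The steps were tested on simulated data. A rule picked the 25 largest rises and 25 largest falls with at least 5 CPM and a symbol. These came from loci past FDR 0.05 and a log2FC of 1 in size. It also picked up to 4 members past both thresholds from each of 78 lists, and up to 2 members of lists without any. Of the 179 loci picked by the rule, 129 are named here and the rest are not. A further 72 named loci lay outside it. Members and lists were chosen with earlier results of these data known. Loci past both thresholds without a symbol (111 of 467) are not described. Names come from the deposited annotation, and loci that share a name, or are near-identical copies such as histones, are uncertain. Alternatives were library size alone, RLE factors, DESeq2 1.42.0, other filters, the 20 fish alone, the fish number as a block, the RPE and melanin marker score as a covariate, and each of the 20 fish left out. No genome of the authors' build was used here, so that no positions or sequences are given, and promoter motifs were not analysed here.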

Additional observations from a re-analysis of the deposited data

Results flagged for a closer look

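In each group of 10 fish, the gap between the most extreme fish and its nearest neighbour was divided by the range of the group on the log2 CPM scale and held against Dixon's 95% limit for 10 values. Of 108 groups (54 genes at 2 ages) 21 exceeded it, and 11 of the 21 were fish 1 of the 18-week group. The genes share the same fish and were picked from these data, so that this count cannot be held against a chance rate. That fish was lowest for GRK1B (gap over range 0.5108), RP1L1 (0.5898), RPGRB (0.6163), PCLOA (0.6349), CIARTA (0.5739), CYP24A1 (0.6029), GRIN1A (0.705) and IGF1RA (0.6788). It was highest for AIF1 (0.4895), FABP7A (0.6989) and RNASET2 (0.5038). For example, GRIN1A was at 1.13 CPM in this fish and 9.41 to 20.8 CPM in the other 9 old fish, and FABP7A at 143.5 CPM against 62.0 to 79.8.

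Fish 6 of the 6-week group was highest for COL1A1A (0.6492), COL1A1B (0.6552), COL1A2 (0.6732), KRT5 (0.7006) and BGNB (0.5059) and lowest for CACNA1BA (0.6601, at 3.66 CPM against 5.84 to 7.38 CPM in the others). Fish 8 of that group was highest for C1QC (0.5413) and AIF1 (0.608). In the 18-week group, fish 2 was lowest for COL1A1B (0.4835), where it had no read, and fish 9 was lowest for COL23A1 (0.537).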

How the results depend on the processing

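With TMM, 183 genes were higher and 284 lower past both thresholds (39.2% of calls higher). Library size alone gave 532 and 113 (82.5% higher), RLE factors 180 and 286, no filter on low counts 322 and 657, at least 1 CPM in 10 fish 260 and 439, the 20 fish alone 148 and 241, DESeq2 285 and 552, and the RPE and melanin score as a covariate 226 and 179. Leaving out each of the 20 fish gave 175 to 230 higher and 247 to 327 lower genes, with 187 and 247 without fish 1 of the 18-week group. Fish that shared a number did not vary together (correlations of -0.106 to 0.09996, 0 of 10 over 0.1), so that the numbers do not pair them, and the replicate block gave 190 and 291.

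Of the 201 loci named, 52 no longer met the thresholds they had met with library size alone and 77 with the RPE covariate. The RPE covariate turned the direction of 10 that had risen or fallen in the main fit: RBP3 (0.20), DCT (0.015), RLBP1B (0.24), RDH8A (0.29), COL9A1 (0.73), COL2A1A (0.12), RPL19 (0.0067), PSMA4 (0.013), RBP1A (0.16) and 1 of 3 RAB27B loci (0.23), all by log2FC. The cause was not tested. None of the loci named that had risen or fallen in the main fit turned direction under any other alternative. ASMT, which had done neither, went from -0.10 to 0.20 with library size alone and to 0.22 with the RPE covariate. Leaving out 1 fish turned the FDR call or moved the log2FC by over 1.5 times in 6 of the loci named (C1QC, COL1A1A, COL1A1B, COL1A2, KRT5 and DSP), whose values are given beside them. By the thresholds each locus had met, more calls ended, in 96 pairs of a locus and a left-out fish against 3924 without such a change. AIF1 and RDH8A, with a log2FC of 1.001 and -1.007, each lost theirs in 10 of the 20 fits. EYS, STMN1A and the named NEUROD2 locus each lost theirs in 8 of them. At a few CPM, depth limits what can be seen of genes such as SOD3, PKMB and COL23A1.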

Other observations

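Lists not described in the report are given here, with log2FC from the same fit. Their counts are read against the 14.0% of all tested loci that rose and the 15.2% that fell. Amacrine markers (10% risen and 10% fallen), mitochondrial carriers (14.3% and 14.3%), Rab GTPases (16.7% and 9.7%) and cholesterol synthesis (5.9% and 11.8%) lay near or under these shares. Among bipolar cell genes 6 of 18 fell and 3 rose, with 1 of 2 loci of GNG13 (-1.60, the other 0.83), a G protein subunit of the light response in ON bipolar cells, and DMBX1B (-1.19), a homeobox factor. Ganglion cell markers had 7 fallen and 3 risen of 23, amacrine markers 2 and 2 of 20, and horizontal cell markers 2 and 1 of 9. With library size alone, ganglion cell markers had 1 fallen and 8 risen, bipolar genes 4 and 6, amacrine markers 0 and 8, and horizontal cell markers 1 and 6. With the RPE covariate 4 ganglion cell, 5 bipolar, 2 amacrine and 1 horizontal cell marker fell. In vesicle release 18 of 69 genes fell and 9 rose (7 and 34 with library size alone, 17 and 2 with the RPE covariate). Myelin was represented by 3 risen and 3 fallen of 11 oligodendrocyte markers, PLP1B (0.88), the main myelin proteolipid, and CLDN19 (0.67) among the risen. None of these markers fell without fish 1 of the 6-week group or with library size alone, and 1 fell without fish 10 of that group or fish 6 of the 18-week group.

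Histone and DNA modifying enzymes had 18 fallen and 5 risen of 73. These counts were 4 and 26 with library size alone and 11 and 1 with the RPE covariate. Without any 1 of fish 3 and 10 of the 6-week group and fish 4 and 8 of the 18-week group, 3 rose. Kinesins, the motors that carry cargo along microtubules, had 8 fallen and 4 risen of 29 (2 and 7 with library size alone, 4 and 0 with the RPE covariate), with KIF21B (-1.04). Rab GTPases had 12 risen and 7 fallen of 72. The 3 loci of RAB27B, which acts in secretion, moved in both directions (-1.09, -0.47 and 0.63). Of 31 ABC transporters 10 rose and 6 fell, with ABCC5 (-1.46), an exporter of cyclic nucleotides. Cholesterol synthesis had 1 risen and 2 fallen of 17, 2 and 1 with library size alone, and 0 and 4 without fish 1 of the 18-week group. Its fallen members were its regulator SREBF2 (-0.67) and the enzyme FDPS (-0.50). Among iron genes CP (-1.93), ceruloplasmin, which oxidises iron for export, was the member that fell of 15. With the RPE covariate CP had -0.71 (FDR = 0.452), and 0 iron genes fell. SLC25A30 (1.097) was among 6 risen and 6 fallen of 42 mitochondrial carriers. These carriers had 3 fallen without fish 6 of the 6-week group and 21 risen and 2 fallen with library size alone.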
